A study of Mus musculus with 12 samples.

Results

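The BCL2 family comprises proteins that decide whether the outer membrane of mitochondria is kept intact or opened, the committing step of the intrinsic pathway of cell death. Its genes of survival and death described here were chosen by gene name: Bcl2, Bcl2l1, Mcl1, Bcl2l11, Bax, Bak1, Bbc3, Pmaip1, Bid and Bad, 10 of the 54532 genes listed for each library. The study sequenced RNA of mouse primary CD8+ T cells from wild-type C57BL/6 animals, taken from spleen and peripheral lymph nodes by magnetic isolation and activated with antibodies to CD3 and CD28. The cells received a non-targeting siRNA (siNTC) or an siRNA to Creb1 (siCreb1, labelled as the Creb1 KD genotype), and were then cultured for 24 h with DMSO or with trans-vaccenic acid (TVA), a trans fatty acid of ruminant fat and milk. The 4 groups, each of 3 libraries, were siNTC, siNTC plus TVA, siCreb1 and siCreb1 plus TVA, and the siNTC and siCreb1 groups without TVA had DMSO. The comparisons ask whether TVA changed the expression of these genes and whether knockdown of Creb1 changed it. They also ask whether the effect of TVA differed once Creb1 was depleted.

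As background, BCL2, BCL-XL (the product of Bcl2l1) and MCL1 are the survival proteins of the family, which hold BAX and BAK in check. The BH3-only proteins, here BIM (from Bcl2l11), PUMA (from Bbc3), NOXA (from Pmaip1), BID and BAD, bind the survival proteins or activate BAX and BAK, which form the pores in the membrane. In T cells, BIM and PUMA drive the loss of cells after activation and cytokine withdrawal, while BCL2 and MCL1 keep resting and memory cells alive. CREB, the product of Creb1, is a transcription factor that binds cAMP response elements, and Bcl2 and Mcl1 are reported targets of it. Many family members are also set by protein turnover and phosphorylation, which RNA does not measure.

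The labels of the knockdown and of the cell type were checked first. Creb1 (ENSMUSG00000025958), on chromosome 1 of GRCm38 from 64532645 to 64604548, lay between 10.3 and 12.4 FPKM in the 6 libraries with siNTC and between 1.17 and 1.81 FPKM in the 6 with siCreb1. FPKM, the unit of the values as the authors deposited them, is a read count scaled by gene length and library size. The siCreb1 libraries held 13.2% of the mean Creb1 level of the siNTC libraries (exact two-sided permutation test, 6 against 6 libraries, p = 0.00216). Recovered reads per library ranged from 16660234 to 24602484, and their medians were 20236123 in siNTC, 18439724 in siNTC plus TVA, 21995620 in siCreb1 and 23616471 in siCreb1 plus TVA.

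All 8 CD8+ T cell markers were above a mean of 1 FPKM, with a summed level of 2830 FPKM for siNTC, 2785 for siNTC plus TVA, 2667 for siCreb1 and 2659 for siCreb1 plus TVA cells, and Cd8b1 as the most abundant (887 FPKM). With siCreb1 6 of the 8 were called without TVA, 1 higher and 5 lower, and 4 with TVA, 1 higher and 3 lower, against 13.7% and 10.1% of all tested genes, with log2 fold changes from −0.16 to 0.10. Markers of other cells were low: the summed level per library reached 4.67 FPKM for the CD4+ T cell genes Cd4 and Foxp3, 13.85 FPKM for B cell genes, 8.88 FPKM for myeloid genes, 5.24 FPKM for NK cell genes and 0.271 FPKM for dendritic cell genes. The B cell gene Ms4a1 had a mean of 0.139 FPKM. The myeloid gene Lyz2 was called higher with siCreb1 in the presence of TVA (log2 fold change 0.40, adjusted p = 0.0478 from limma), a call kept in 6 of 20 alternatives (adjusted p from 0.0238 to 0.145) and lost without 10 of the 12 libraries in turn. Erythroid and platelet genes differed with the siRNA: their sum was 155 ± 4.05 FPKM (SD, n = 3) for siNTC, 146 ± 2.37 for siNTC plus TVA, 94.2 ± 2.62 for siCreb1 and 115 ± 3.45 for siCreb1 plus TVA cells. Platelet factor genes made up that sum, with Ppbp the most abundant (67.5 FPKM), while the haemoglobin gene Hbb-bs was at 0 in all 12 libraries and Hba-a1 had a mean of 0.0932 FPKM. In siCreb1 against siNTC cells without TVA, Ppbp fell by 0.79 on the log2 scale and Pf4 by 0.62 (adjusted p = 2.94e-05 and 5.5e-05). Of 11 further platelet genes, chosen after values were seen, 9 were tested. All 9 had negative log2 fold changes in that comparison, from −0.78 to −0.15. Of these 6 were called lower by limma, against 7.21% of all tested genes called lower. The sum of the 11 was 86.1, 79.7, 65.2 and 69.3 FPKM in the order of groups above. The part of these platelet transcripts in the results on siCreb1 given below was not tested. Between 1.85% and 2.13% of the reads of each library came from mitochondrial genes.

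All 10 genes passed the filter of a mean of 1 FPKM over the 12 libraries, which 11550 genes passed in all. Per length of transcript, the survival gene Mcl1 was the most abundant of the 10, at 167 to 187 FPKM, followed by Bcl2 (66.8 to 80.1 FPKM) and the pore-forming Bax (58.5 to 72.7 FPKM). Mcl1 ranked 241, Bcl2 623 and Bax 737 among the tested genes. A middle tier held Bbc3 (19.3 to 32.6 FPKM), the pore-forming Bak1 (21.4 to 24.1 FPKM), Bcl2l11 (19.3 to 21.2 FPKM) and Bcl2l1 (10.95 to 13.97 FPKM). Bad (7.25 to 9.72 FPKM), Bid (5.94 to 7.93 FPKM) and Pmaip1 (4.96 to 6.95 FPKM) were the least abundant of the 10. The reads behind the values ranged from 271 to 367 per library for Pmaip1 and from 10641 to 17603 for Bcl2. Bcl2 and Mcl1 were measured with little spread: the pooled standard deviation within groups on the log2 scale was 0.02 for Bcl2 and 0.03 for Mcl1, against a median of 0.08 over the tested genes. In GENCODE vM21 the positions of Pmaip1 and Bad differ from those in the deposited tables, which give Bad a length of 2007 bases. By GENCODE vM21, some exon bases are shared with another gene: 628 of 3550 of Bid with Bcl2l13, 524 of 2558 of Bad with Gpr137, 437 of 2407 of Bak1 with Ggnbp1 and 558 of 9157 of Bcl2 with D630008O14Rik, on the opposite strand in each case, and 192 of 1576 of Bax with Gm45808 on the same strand. A second Ggnbp1 entry, not among the genes listed for each library, shared 177 of the 2407 bases of Bak1, also on the opposite strand. Bcl2l13 was at 7.94, Gpr137 at 3.79, the listed Ggnbp1 at 0.431 and D630008O14Rik at 0.376 FPKM, and Gm45808 was listed at 0. Whether the counting used the strand is not given in the sources used here, so reads of the shared bases cannot be assigned to either gene.

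**Figure D1:**
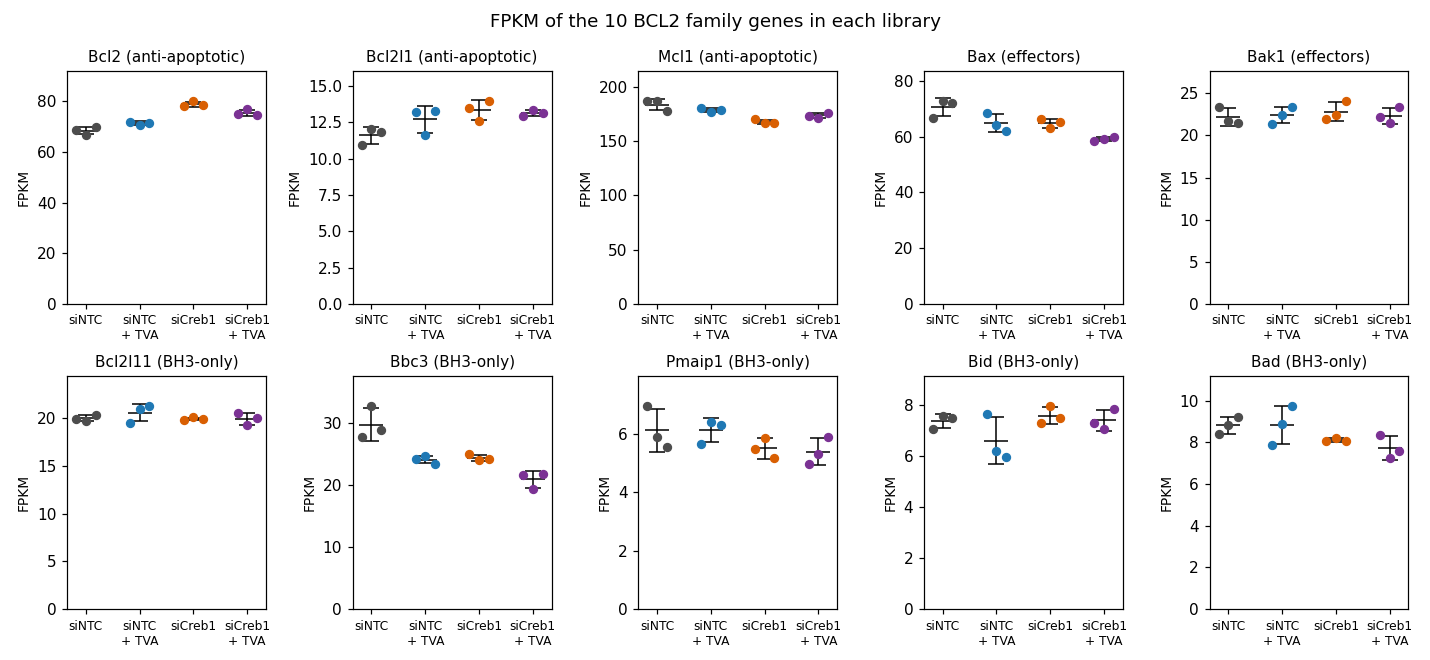
FPKM of the 10 genes in each of the 12 libraries (points), with the mean (line) and SD (error bar) of each group of 3, arranged by role. Bcl2 was higher and Mcl1 lower in the 6 siCreb1 libraries than in the 6 siNTC libraries, though the Mcl1 difference with TVA turned sign with TPM and with quantile normalization, and Bak1 and Bcl2l11 overlapped across groups.

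Bcl2 (ENSMUSG00000057329), the founding survival gene of the family, lies on chromosome 1 of GRCm38 from 106538178 to 106714274. Mcl1 (ENSMUSG00000038612), whose short-lived protein binds BIM and NOXA, lies on chromosome 3 from 95658788 to 95663176. Bbc3 (ENSMUSG00000002083), a p53 target, lies on chromosome 7 from 16308393 to 16318205. Because Bcl2 and Mcl1 are reported CREB targets, the letters of the cAMP response element were searched on both strands in windows from 250 bases before to 50 bases after each start site (RefSeq, GRCm38.p6). Of the 10 genes 9 had a window, 15 windows in all, and Pmaip1 had none. The full element TGACGTCA, which contains the half-site TGACG on both strands, was in 0 of the 15 windows and in 588 of all 32851 windows (1.79%). The half-site TGACG, which reads CGTCA on the other strand, was in 3 of the 15, one each of Bcl2, Mcl1 and Bbc3, and in 6837 of all windows (20.8%), a share close to that of the 15. The 3 windows of Bcl2l1 held 0. The half-site lay 103 to 107 bases before the RefSeq start site of Bcl2 on the strand of the gene, 16 to 20 bases after that of Mcl1 on the opposite strand, and 51 to 55 bases before that of Bbc3 on the opposite strand. For these 3 genes the RefSeq start site differs from the start in the deposited positions given above. The whole Mcl1 window lies before the deposited start of Mcl1. Capitals mark the half-site, and a match is a description of the letters.
Bcl2, chr1:106714241-106714540, minus strand: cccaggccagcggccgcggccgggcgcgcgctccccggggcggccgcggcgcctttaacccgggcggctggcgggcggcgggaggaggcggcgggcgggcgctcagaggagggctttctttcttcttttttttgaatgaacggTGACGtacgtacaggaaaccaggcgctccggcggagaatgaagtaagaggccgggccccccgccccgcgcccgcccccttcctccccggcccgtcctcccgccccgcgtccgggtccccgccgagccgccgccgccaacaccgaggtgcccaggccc
Mcl1, chr3:95658471-95658770, plus strand: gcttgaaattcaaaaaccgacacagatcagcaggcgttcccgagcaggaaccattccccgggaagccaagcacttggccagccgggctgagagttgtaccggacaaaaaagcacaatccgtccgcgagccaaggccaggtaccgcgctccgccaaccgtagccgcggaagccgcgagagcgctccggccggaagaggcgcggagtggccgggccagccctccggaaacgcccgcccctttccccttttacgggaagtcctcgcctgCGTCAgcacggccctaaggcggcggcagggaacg
Bbc3, chr7:16309333-16309632, plus strand: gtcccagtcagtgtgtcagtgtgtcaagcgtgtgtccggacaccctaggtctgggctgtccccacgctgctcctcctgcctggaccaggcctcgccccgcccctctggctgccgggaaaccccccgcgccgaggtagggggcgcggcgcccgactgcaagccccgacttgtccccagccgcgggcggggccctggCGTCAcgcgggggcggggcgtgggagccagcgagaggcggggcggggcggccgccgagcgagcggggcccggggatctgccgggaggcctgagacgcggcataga

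Knockdown of Creb1 in cells without TVA went with higher RNA of the survival genes Bcl2 and Bcl2l1. RNA of the survival gene Mcl1 and of the death gene Bbc3 was lower there. Effects of lower Creb1 and other effects of the siCreb1 treatment cannot be told apart in this design. Of the 10 genes 4 passed the test, 2 higher and 2 lower, against 13.7% of all 11550 tested genes (6.52% higher and 7.21% lower). With TPM 2 of the 10 passed, Bcl2 and Bbc3. Of all tested genes 753 were called higher and 833 lower, but 908 and 297 with FPKM rescaled to TPM and 1178 and 805 with limma-voom on the recovered reads, and 1020 and 1054 genes were called without siCreb1 replicate 1 or 2 in place of 1586. The test was limma's moderated test on log2(FPKM + 1), with p adjusted by Benjamini and Hochberg over all 11550 genes and a threshold of 0.05. The median log2 fold change of the 10 genes was −0.06 against 0.00 over all tested genes, and their median size of change was 0.12 against 0.09. In bulk RNA, fewer cells that express a gene and less RNA per cell cannot be told apart. The comparisons of siCreb1 with siNTC and of TVA with DMSO share their control libraries.

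Bcl2 was at 68.6, 66.8 and 69.7 FPKM in the siNTC libraries and at 78.1, 80.1 and 78.4 FPKM in the siCreb1 libraries. It was at 71.9, 70.6 and 71.6 FPKM in siNTC plus TVA and at 75.0, 76.8 and 74.4 FPKM in siCreb1 plus TVA. No library of one group lay within the range of another, and all 6 siCreb1 libraries were above all 6 siNTC libraries. Bcl2 rose by 15.3% with siCreb1 in cells without TVA, from 68.4 ± 1.46 to 78.8 ± 1.08 FPKM (SD, n = 3 each), a log2 fold change of 0.20 (standard error 0.02, adjusted p = 0.000433 from limma). The call held under all 20 alternatives, with log2 fold changes from 0.19 to 0.25. The order of the means was siNTC, siNTC plus TVA, siCreb1 plus TVA and siCreb1, and none of the 3 pairs of neighbours passed the test (adjusted p = 0.145, 0.0526 and 0.386 from limma).

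In FPKM, the group means of Mcl1 stood in the opposite order. It was at 187, 187 and 178 FPKM in siNTC, 181, 177 and 179 FPKM in siNTC plus TVA, 170.1, 167 and 167 FPKM in siCreb1 and 173, 172 and 176 FPKM in siCreb1 plus TVA. All 6 siCreb1 libraries lay below all 6 siNTC libraries, though the difference with TVA turned sign with TPM and with quantile normalization, while the siNTC and siNTC plus TVA libraries overlapped. Without TVA, Mcl1 fell by 8.68% with siCreb1, from 184 ± 5.31 to 168 ± 1.90 FPKM (SD, n = 3 each), a log2 fold change of −0.13 (standard error 0.02, adjusted p = 0.00512 from limma). The call was lost with FPKM rescaled to TPM (log2 fold change −0.08, adjusted p = 0.153) and with quantile normalization (−0.05, adjusted p = 0.19), and the adjusted p over its 20 alternatives ranged from 0.0011 to 0.19. From highest to lowest the means were those of siNTC, siNTC plus TVA, siCreb1 plus TVA and siCreb1, and none of the neighbours differed by the test (adjusted p = 0.39, 0.294 and 0.538 from limma).

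With Bcl2 higher and Mcl1 lower, the make-up of the survival transcripts differed while their sum in FPKM stayed close. The sum was taken on the FPKM scale only, and the Mcl1 call was lost with TPM and with quantile normalization. The summed FPKM of Bcl2, Bcl2l1 and Mcl1 was 263.8 ± 3.98 in siNTC, 263 ± 3.35 in siNTC plus TVA, 260.1 ± 1.38 in siCreb1 and 262 ± 1.23 in siCreb1 plus TVA cells (SD, n = 3 each). The share of Mcl1 in that sum was 69.7%, 68.0%, 64.5% and 66.3% in the same order. Bcl2 over Mcl1 was 0.357 to 0.392 in siNTC, 0.398 to 0.401 in siNTC plus TVA, 0.459 to 0.480 in siCreb1 and 0.422 to 0.447 in siCreb1 plus TVA libraries, with no overlap between groups. These sums and ratios were chosen after the values were seen and have no test.

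Bcl2l1 (ENSMUSG00000007659), on chromosome 2 from 152780668 to 152831728, encodes BCL-XL, which T cells induce on activation. It was at 10.95, 12.03 and 11.83 FPKM in siNTC, 13.23, 11.65 and 13.27 FPKM in siNTC plus TVA, 13.50, 12.61 and 13.97 FPKM in siCreb1 and 12.95, 13.39 and 13.13 FPKM in siCreb1 plus TVA. The siCreb1 libraries lay above the siNTC libraries, and the 3 groups other than siNTC overlapped. The siNTC plus TVA libraries also overlapped with the siNTC libraries, through replicate 2 at 11.65 FPKM. Without TVA, Bcl2l1 rose by 15.1% with siCreb1, from 11.6 ± 0.574 to 13.4 ± 0.691 FPKM (SD, n = 3 each), a log2 fold change of 0.19 (standard error 0.05, adjusted p = 0.0464 from limma). This call was close to the threshold and was kept in 6 of 20 alternatives, whose adjusted p ranged from 0.0091 to 0.145. It was lost with no filter on low values (0.115), with TPM (0.0507), with the replicate block (0.0623) and in a fit of only the libraries compared (0.0854). Leaving out 1 library ended it in 10 of 12 cases. The adjusted p was 0.143, 0.0615 and 0.0747 without siNTC replicate 1, 2 or 3, and 0.12 and 0.145 without siCreb1 replicate 1 or 3. It was 0.052 and 0.0509 without siNTC plus TVA replicate 1 or 3, and 0.0631, 0.0624 and 0.0642 without siCreb1 plus TVA replicate 1, 2 or 3.

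**Figure D2:**
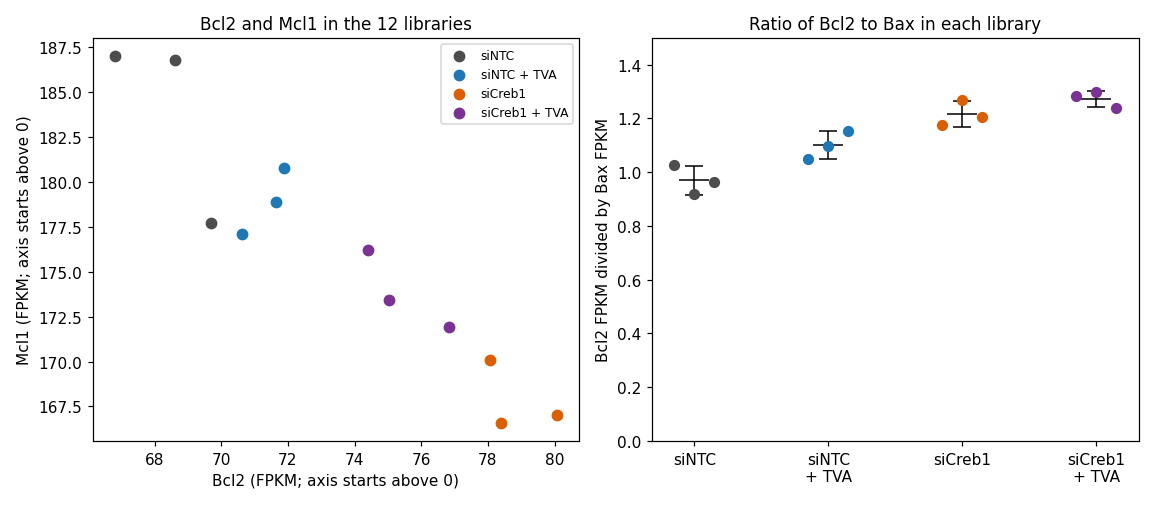
Left, FPKM of Mcl1 against FPKM of Bcl2 with a point for each of the 12 libraries coloured by group, on axes that start above 0, and right, the ratio of Bcl2 to Bax FPKM in each library with the mean and SD of each group of 3. The siCreb1 libraries sit at the highest Bcl2 and lowest Mcl1 values, and the mean ratio of Bcl2 to Bax was 0.970 in siNTC and 1.27 in siCreb1 plus TVA cells.

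Bbc3 encodes PUMA, a BH3-only protein that binds all the survival proteins of the family. It was at 27.7, 32.6 and 28.8 FPKM in siNTC, 24.2, 24.6 and 23.4 FPKM in siNTC plus TVA, 24.9, 23.9 and 24.1 FPKM in siCreb1 and 21.5, 19.3 and 21.8 FPKM in siCreb1 plus TVA. The siNTC libraries were the highest, the siCreb1 plus TVA libraries the lowest, and the siNTC plus TVA and siCreb1 libraries overlapped between them. Without TVA, Bbc3 fell by 18.1% with siCreb1, from 29.7 ± 2.60 to 24.3 ± 0.527 FPKM (SD, n = 3 each), a log2 fold change of −0.27 (standard error 0.06, adjusted p = 0.0127 from limma). This call held under all 20 alternatives, with log2 fold changes from −0.32 to −0.21.

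TVA in siNTC cells lowered Bbc3, and no other of the 10 genes passed the test. That is 1 of 10, against 7.38% of all tested genes (4.49% higher and 2.88% lower). At an unadjusted p under 0.05 there were 3 of the 10, against 2417 of all 11550 tested genes. Of all tested genes 519 were called higher and 333 lower, 402 and 154 with TPM, and 558 were called without siNTC plus TVA replicate 2 in place of 852. Bbc3 fell by 19.0%, from 29.7 ± 2.60 to 24.1 ± 0.621 FPKM (SD, n = 3 each), with all 3 siNTC plus TVA libraries below all 3 siNTC libraries. The log2 fold change was −0.29 (95% interval −0.42 to −0.16, adjusted p = 0.0139 from limma). The call was lost without siNTC plus TVA replicate 3 (log2 fold change −0.27, adjusted p = 0.055) and in a fit of only the libraries compared (adjusted p = 0.0676), and the adjusted p over the 20 alternatives ranged from 0.00313 to 0.0676. The same comparison gave a log2 fold change of 0.06 for Bcl2 (adjusted p = 0.145 from limma), whose siNTC plus TVA libraries all lay above the siNTC libraries, and of 0.12 for Bcl2l1 (adjusted p = 0.243 from limma). Limma-voom on the recovered reads called Bcl2 as well (log2 fold change 0.07, adjusted p = 0.0495), in a range of 0.0495 to 0.449 over the alternatives. For Mcl1 the log2 fold change was −0.04 (adjusted p = 0.39 from limma). The count of 1 was 0 without siNTC plus TVA replicate 3, 2 without siNTC replicate 1 (Bax and Bbc3) and 3 without siNTC plus TVA replicate 1 (Bax, Bbc3 and Bid).

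TVA in siCreb1 cells changed none of the 10 genes by limma's test, and limma-voom also called 0, against 0.537% of all tested genes by limma. An unadjusted p under 0.05 was found for 3 of the 10 and for 1106 of all 11550 tested genes. The count of limma calls over all genes, 62, was 33 and 30 without siCreb1 replicate 1 or 2 and 35, 35 and 31 without siCreb1 plus TVA replicate 1, 2 or 3, and the 10 genes had 0 calls in each. The log2 fold change of Bbc3 was −0.21 (adjusted p = 0.229 from limma), with all 3 siCreb1 plus TVA libraries below all 3 siCreb1 libraries. Bcl2 had a log2 fold change of −0.06 (adjusted p = 0.386 from limma), with all 3 siCreb1 plus TVA libraries below the siCreb1 libraries, the opposite sign to its value in siNTC cells.

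Whether the effect of TVA depended on Creb1 was tested by the interaction, which called 0 of the 10 genes by limma, against 2.24% of all tested genes. The unadjusted p was under 0.05 for 2 of the 10 and for 1657 of all 11550 tested genes. Over all genes the count of calls was 259, or 172 without siNTC plus TVA replicate 2 and 168 and 172 without siCreb1 replicate 1 or 2. For Bbc3 the difference between the effect of TVA in siCreb1 and in siNTC cells was 0.08 on the log2 scale (adjusted p = 0.744 from limma), so the fall called in siNTC cells was not shown to differ from the value in siCreb1 cells. For Bcl2 the difference was −0.12 (adjusted p = 0.0814 from limma). Limma-voom called it (−0.13, adjusted p = 0.0234), the 1 gene of the 10 it called, against 446 of all 11550 tested genes. The adjusted p for Bcl2 over the alternatives ranged from 0.0234 to 0.431. For Mcl1 the difference was 0.09 (adjusted p = 0.231 from limma) and for Bcl2l1 it was −0.14 (adjusted p = 0.457 from limma).

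With TVA present, siCreb1 against siNTC gave 0 calls among the 10 genes by limma, against 10.1% of all tested genes. Of the 10 genes 4 had an unadjusted p under 0.05, against 3029 of all 11550. Limma-voom called 1 of the 10, against 1532 of all 11550. Over all genes limma called 1172, but 757, 655 and 752 without siNTC plus TVA replicate 1, 2 or 3 and 599, 601 and 669 without siCreb1 plus TVA replicate 1, 2 or 3. The count of 0 became 2 without siNTC replicate 1 (Bax and Bbc3), siNTC replicate 2 (Bbc3 and Bcl2) or siNTC plus TVA replicate 1 (Bad and Bid). Bcl2 was 5.66% higher in siCreb1 plus TVA than in siNTC plus TVA cells (log2 fold change 0.08, adjusted p = 0.0526 from limma), with no overlap of the libraries. It passed the threshold with the filter at a mean of 5 FPKM (0.0452), quantile normalization (0.0159), limma-voom (0.00414) and without siNTC replicate 2 (0.0407), in a range of adjusted p from 0.00414 to 0.168 over the alternatives. The log2 fold change of Bbc3 was −0.20 (adjusted p = 0.0608 from limma), and it passed with the filter at a mean of 5 FPKM (0.044), without siNTC replicate 1 (0.0465) and without siNTC replicate 2 (0.0225), in a range from 0.0225 to 0.186. Mcl1 had a log2 fold change of −0.04 (adjusted p = 0.294 from limma), which turned to 0.01 with TPM and 0.04 with quantile normalization.

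**Figure D3:**
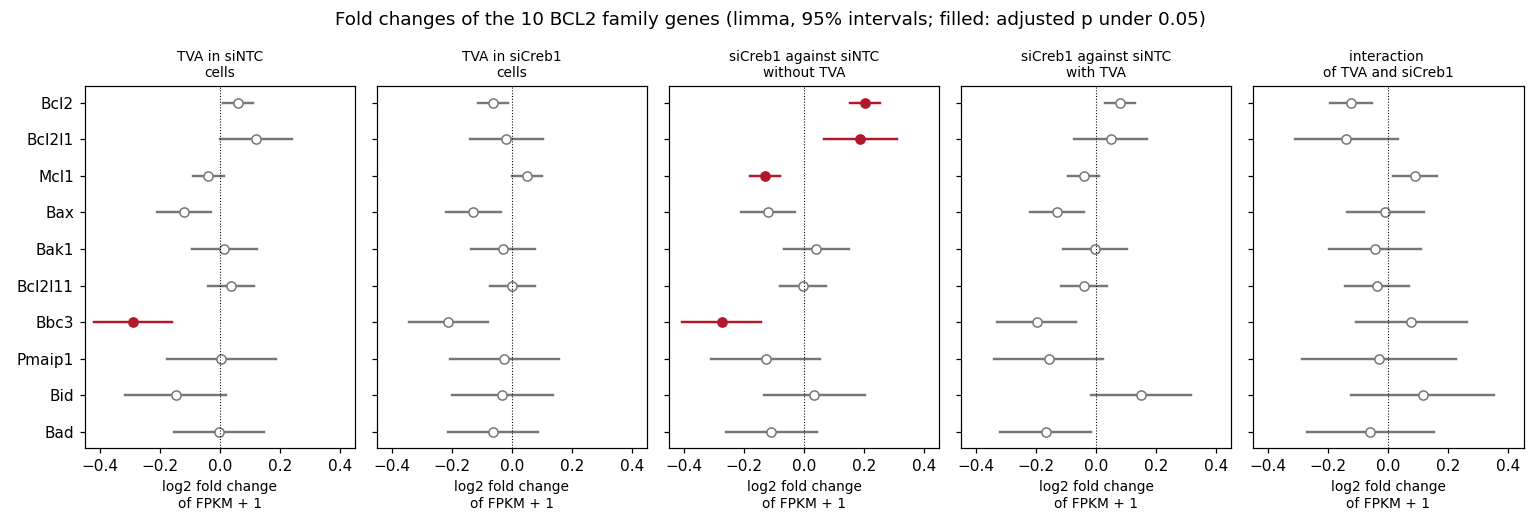
Log2 fold changes of the 10 genes with 95% intervals in the 4 pairwise comparisons and the interaction, with filled points where the adjusted p was under 0.05. In siCreb1 against siNTC without TVA, Bcl2 and Bcl2l1 were higher and Mcl1 and Bbc3 lower, and in siNTC cells TVA lowered Bbc3. The siCreb1 calls of Bcl2 and Bbc3 held under all alternatives. Those of Bcl2l1 and Mcl1, and the TVA call of Bbc3, were lost under some.

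Bax (ENSMUSG00000003873), on chromosome 7 from 45461697 to 45466898, encodes a pore-forming protein of the family and is, like Bbc3, a p53 target. It was at 66.8, 72.7 and 72.2 FPKM in siNTC, 68.5, 64.3 and 62.1 FPKM in siNTC plus TVA, 66.3, 63.1 and 65.1 FPKM in siCreb1 and 58.5, 59.2 and 60.0 FPKM in siCreb1 plus TVA. The means were 70.6 ± 3.29, 65.0 ± 3.26, 64.8 ± 1.63 and 59.2 ± 0.771 FPKM (SD, n = 3 each), and the siCreb1 plus TVA libraries lay below all others. None of the comparisons passed the test: the log2 fold change was −0.12 for TVA in siNTC cells (adjusted p = 0.121 from limma) and −0.13 for TVA in siCreb1 cells (adjusted p = 0.321 from limma). For siCreb1 against siNTC it was −0.12 without TVA (adjusted p = 0.0794 from limma) and −0.13 with TVA (adjusted p = 0.0721 from limma). These values stayed negative under every alternative run, and the interaction was −0.01 (adjusted p = 0.964 from limma), from −0.04 to 0.03 over the alternatives. Without siNTC replicate 1, the lowest siNTC library, Bax passed for TVA in siNTC cells (0.0442) and for siCreb1 without and with TVA (0.0309 and 0.0425), and without siNTC plus TVA replicate 1 it passed for TVA in siNTC cells (0.049). Over the alternatives the adjusted p ranged from 0.0442 to 0.313, from 0.0309 to 0.381 and from 0.0425 to 0.368 in those 3 comparisons. Bcl2 over Bax, a ratio chosen after the values were seen, was 0.970 ± 0.0545 in siNTC, 1.10 ± 0.0523 in siNTC plus TVA, 1.22 ± 0.0473 in siCreb1 and 1.27 ± 0.0299 in siCreb1 plus TVA cells (SD, n = 3 each).

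Bak1 (ENSMUSG00000057789), the other pore-forming gene, and Bcl2l11 (ENSMUSG00000027381), whose product BIM activates BAX and BAK, passed no test in any comparison. Bak1, on chromosome 17 from 27019810 to 27029009, had means of 22.2 ± 1.04, 22.4 ± 0.993, 22.8 ± 1.10 and 22.4 ± 0.954 FPKM (SD, n = 3 each) in siNTC, siNTC plus TVA, siCreb1 and siCreb1 plus TVA cells, and its groups overlapped. Bcl2l11, on chromosome 2 from 128126038 to 128162547, had means of 19.98 ± 0.311, 20.6 ± 0.901, 19.9 ± 0.137 and 19.9 ± 0.615 FPKM in the same order, and its groups overlapped too. Log2 fold changes in the 4 pairwise comparisons ran from −0.03 to 0.04 for Bak1 and from −0.04 to 0.04 for Bcl2l11, with adjusted p of 0.484 or more from limma.

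The remaining BH3-only genes were measured at low levels. Pmaip1, whose product NOXA binds MCL1, had means of 6.13, 6.14, 5.51 and 5.40 FPKM in siNTC, siNTC plus TVA, siCreb1 and siCreb1 plus TVA cells, with log2 fold changes for siCreb1 of −0.13 without and −0.16 with TVA (adjusted p = 0.353 and 0.253 from limma). Bad, whose product is held inactive by survival kinases, had means of 8.83, 8.83, 8.11 and 7.73 FPKM in the same order and passed no test with all 12 libraries. Bid, whose product links death receptors to mitochondria, was at 7.64, 6.18 and 5.94 FPKM in the siNTC plus TVA libraries, so that replicate 1 stood above the other 2. Without siNTC plus TVA replicate 1, Bid passed for TVA in siNTC cells (log2 fold change −0.24, adjusted p = 0.0325) and for siCreb1 against siNTC with TVA (0.25, adjusted p = 0.0324), where the full fit gave −0.15 (adjusted p = 0.311 from limma) and 0.15 (adjusted p = 0.245 from limma). Without the same library Bad passed for siCreb1 with TVA (−0.24, adjusted p = 0.0472), where the full fit gave −0.17 (adjusted p = 0.145 from limma). Summed over Bcl2l11, Bbc3, Pmaip1, Bid and Bad, the BH3-only genes stood at 72.0 ± 2.37 FPKM for siNTC, 66.2 ± 1.11 for siNTC plus TVA, 65.4 ± 0.665 for siCreb1 and 61.3 ± 2.68 for siCreb1 plus TVA cells (SD, n = 3 each). The pore-forming genes Bax and Bak1 summed to 92.8, 87.4, 87.7 and 81.6 FPKM in the same order. Both sums were chosen after the values were seen and have no test.

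Among 15 other genes of the family, 8 were tested, and 7 were below the filter: Bcl2a1a, Bcl2l10, Bok, Hrk, Bik, Bcl2l14 and Bcl2l15. Bnip3l, a BH3-related gene of mitochondrial clearance, was the most abundant of them at 49.0 FPKM, and it fell by 16.8% with siCreb1 in cells without TVA (log2 fold change −0.26, adjusted p = 0.000958 from limma), a call kept under all 20 alternatives. Bmf, a BH3-only gene, fell in that comparison from 2.79 to 2.04 FPKM (log2 fold change −0.32, adjusted p = 0.0178 from limma). The Bmf call was lost without siNTC replicate 3, siCreb1 replicate 1 or siCreb1 replicate 2 (adjusted p up to 0.0634), with no filter on low values and in a fit of only the libraries compared, in a range from 0.00654 to 0.0776. With TVA present 1 of the 8 was called, Bnip3l (log2 fold change −0.12, adjusted p = 0.0427 from limma), in 6 of 20 alternatives, against 10.1% of all tested genes. With TVA 0 of the 8 were called in siNTC cells or in siCreb1 cells by limma, against 7.38% and 0.537% of all tested genes. Limma-voom also called 0 of the 8 in each, against 1013 and 157 of all 11550 tested genes. At an unadjusted p under 0.05 there were 2 and 0 of the 8, against 2417 and 1106 of all tested genes. Bcl2a1a, Bcl2a1b and Bcl2a1d are near-identical copies, so the assignment of reads among them is uncertain.

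The genes that act around the family were taken from 7 further lists, and with the other family genes 89 tested genes outside the 10 were examined. Of these 25 (28.1%) were called in at least 1 comparison, against 21.4% of all 11550 tested genes. In all there were 40 calls, of which 14 were kept under every alternative run, 20 were kept with any 1 library left out and 20 were lost without at least 1 library. The list of the apoptosome and other mitochondrial death factors had 14 of 14 genes tested. In siNTC cells, where 7.38% of all tested genes were called, TVA raised 1 of them, Apaf1, the scaffold of the apoptosome, from 6.80 to 7.82 FPKM (log2 fold change 0.18, adjusted p = 0.0348 from limma). This call was lost without 6 of the 12 libraries in turn, with adjusted p up to 0.113, in a range from 0.0101 to 0.131 over the alternatives. With siCreb1, Dffb was called lower without TVA and Cycs lower with TVA, in 14 and 11 of 20 alternatives (adjusted p from 0.00526 to 0.0743 and from 0.0207 to 0.166). The Dffb call was lost without siNTC replicate 2 or 3 or siCreb1 replicate 1 or 2, with no filter on low values and in a fit of only the libraries compared. The Cycs call was lost without siNTC plus TVA replicate 2 or 3 or siCreb1 plus TVA replicate 1 or 3, with no filter, TPM, quantile normalization or limma-voom, and in a fit of only the libraries compared. The death receptor list gave 1 call among 14 tested genes, Casp8 higher with siCreb1 without TVA, kept in 7 of 20 alternatives, against 13.7% of all tested genes called there. Among the IAP genes, which block caspases or serve cell division, 6 of 9 were tested. Of these Birc5, which encodes survivin, rose by 44.8% with TVA in siNTC cells, from 15.0 to 21.7 FPKM, and by 31.4% with siCreb1 without TVA (log2 fold changes 0.50 and 0.37, adjusted p = 0.000247 and 0.00177 from limma).

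The p53 list, which includes Bax, Bbc3 and Pmaip1, had 17 of 20 genes tested. Besides Bbc3, TVA in siNTC cells raised Gtse1, a cell division gene that restrains p53, by 35.6% (log2 fold change 0.40, adjusted p = 0.000881 from limma) and lowered Sesn1 (−0.13, adjusted p = 0.0291 from limma). The Sesn1 call was kept in 12 of 20 alternatives, with adjusted p from 0.0194 to 0.147. It was lost with no filter on low values, with TPM, with the replicate block, in a fit of only the libraries compared, and without siNTC replicate 2 or 3 or siNTC plus TVA replicate 2 or 3. With siCreb1, Mdm4, an inhibitor of p53, rose by 18.7% without TVA and by 26.4% with TVA (adjusted p = 0.000771 and 0.000329 from limma). The cell cycle inhibitor Cdkn1a fell by 31.2% with siCreb1 in the presence of TVA, from 4.23 to 2.91 FPKM (log2 fold change −0.42, adjusted p = 0.012 from limma), and Gtse1 fell by 20.1% there. These calls of Mdm4, Cdkn1a and Gtse1 were kept under every alternative run. Sesn1 fell with siCreb1 without TVA (−0.14, adjusted p = 0.0127 from limma), a call lost with TPM. With siCreb1, Gtse1 was also called higher without TVA and Ccng1 lower with TVA, in 7 and 11 of 20 alternatives.

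Transcription factors known to act on BCL2 family genes were tested for 15 of 15. In siNTC cells, TVA lowered Myb, an activator of Bcl2 in T cells, from 20.8 to 18.5 FPKM (log2 fold change −0.16, adjusted p = 0.0131 from limma), a call lost with TPM and in a fit of only the libraries compared. TVA raised E2f1 there (0.39, adjusted p = 0.013 from limma), lost in a fit of only the libraries compared, and lowered Foxo3 and Foxo4, which were kept in 10 and 6 of 20 alternatives. With siCreb1 and no TVA, Atf4 fell from 49.6 to 42.5 FPKM (−0.22, adjusted p = 0.0044 from limma) under every alternative, Foxo1 fell (−0.13, adjusted p = 0.00688 from limma) except with TPM, and Rela was lower in 11 of 20 alternatives. With TVA present, siCreb1 raised Myb (0.22, adjusted p = 0.00357 from limma) and Runx3 (0.15, adjusted p = 0.0124 from limma) under every alternative, and Stat5a was called higher and Atf4 lower, in 8 and 11 of 20. Of the genes of MCL1 turnover 8 were found by name and 5 of those were tested, and Huwe1, a ubiquitin ligase of MCL1, rose with siCreb1 without TVA (0.15, adjusted p = 0.00669 from limma), a call lost in a fit of only the libraries compared, and was called with TVA in 7 of 20 alternatives. Of 15 kinases upstream of BAD and BIM, all tested, Pim2 fell with TVA in siNTC cells from 119 to 104 FPKM (−0.18, adjusted p = 0.00209 from limma) under every alternative. Pim2 was also called lower with TVA in siCreb1 cells and with siCreb1 without TVA, in 7 and 6 of 20 alternatives. Akt1 fell with siCreb1 with TVA (−0.18, adjusted p = 0.00689 from limma) except with TPM, and without TVA (−0.14, adjusted p = 0.0143 from limma), where the call was lost with TPM, in a fit of only the libraries compared and without siCreb1 replicate 2 (0.053). Pim3 was called lower with siCreb1 without TVA in 8 of 20 alternatives. In the interaction 3 of the 89 genes (3.37%) were called, against 2.24% of all tested genes: Birc5 and Gtse1, whose calls were kept under all 19 alternatives, and Myb, kept in 4 of 19.

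**Figure D4:**
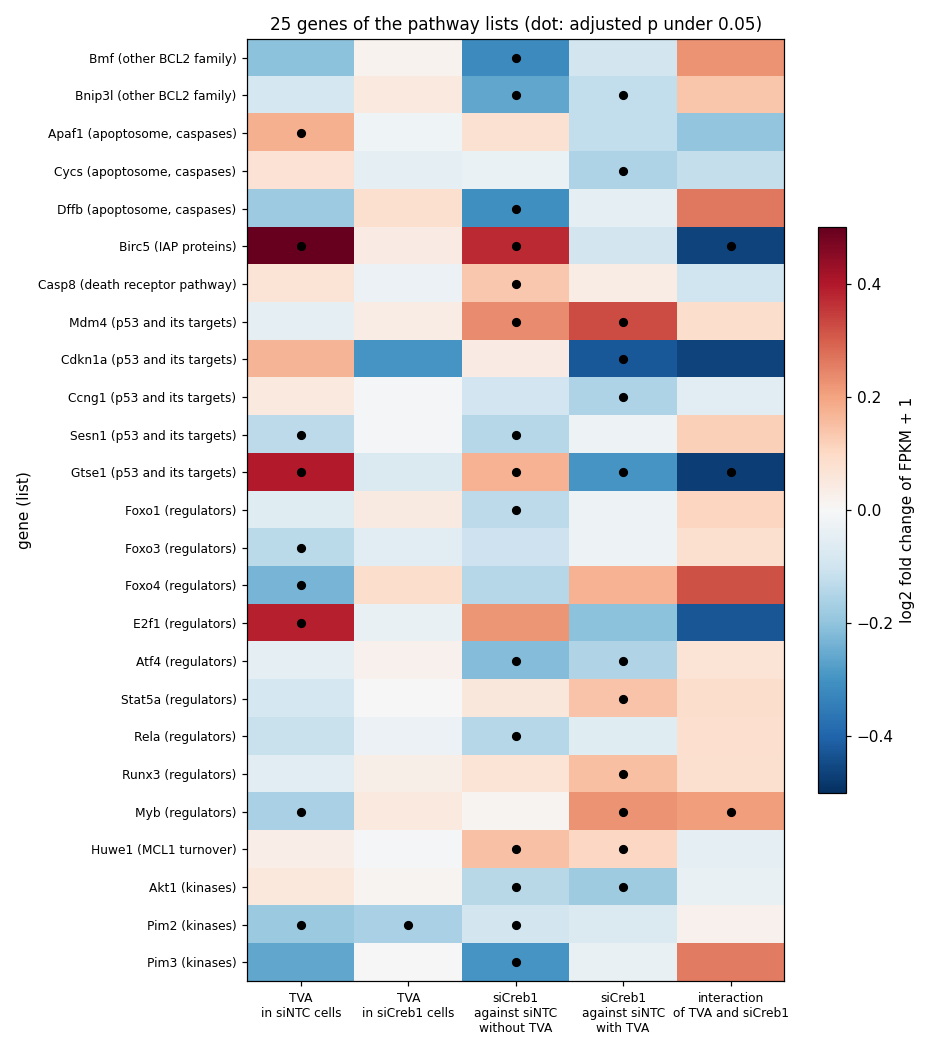
Log2 fold changes (colour) of the 25 called genes of the pathway lists in the 4 pairwise comparisons and the interaction, with a dot where the adjusted p was under 0.05. Birc5, Gtse1 and E2f1 were raised and Pim2 lowered by TVA in siNTC cells, and Mdm4 was raised by siCreb1 without and with TVA.

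Likeness of pattern to the 4 called genes was measured by Pearson's r of log2(FPKM + 1) over the 12 libraries among 9639 protein-coding tested genes, as a description with no test, since the libraries share the groups. Closest to Bcl2 were Cdk6 (r = 0.964), Tgm2 (0.960) and Taf1 (0.948), and closest to Mcl1 were Ehd3 (0.964), Mknk2 (0.949) and Klf2 (0.942). On the TPM scale Klf2 ranked 92 for Mcl1, with r = 0.754, and Mknk2 ranked 19 (0.851). Among the 3 closest to Bbc3 were Uqcrh and Gimap1 (0.966 each), and closest to Bcl2l1 were Dctd (0.944), 4930503L19Rik (0.906) and Ung (0.880). On the TPM scale Uqcrh ranked 13 for Bbc3 (0.897) and Ung 13 for Bcl2l1 (0.896).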

How the data were processed

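RNA-seq libraries of 4 groups of 3 were used, as the labels give them. The authors deposited FPKM values, one table per library with gene names, positions and lengths. The build, GRCm38 (mm10), is that of the submitters' processing notes, and the aligner, the counting program and their versions are not given in the sources used here. Genes with a mean of at least 1 FPKM over the 12 libraries (11550) entered the test, which used log2(FPKM + 1) and limma 3.58.1 in R 4.3.3 (lmFit, contrasts.fit, eBayes with a trend), in one fit with a coefficient per group and 5 comparisons. P-values were adjusted by Benjamini and Hochberg over all tested genes, with a threshold of 0.05. Fold changes on this scale understate those of genes with low FPKM. Reads were recovered by dividing FPKM times gene length by the step of each library and rounding to whole reads. In each library at least 99.9952% of the values above 0 lay within 0.1 of a whole read before rounding.

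The text names all 10 genes, Creb1, every gene of 8 pathway lists called in at least 1 comparison, and the 3 protein-coding genes most like each called gene. The 10 genes and the lists were chosen with earlier results of these data known. The lists cover the other BCL2 family, the apoptosome and mitochondrial factors, IAP proteins, death receptors, p53, transcription factors, MCL1 turnover and kinases, besides markers of CD8+ and CD4+ T, B, myeloid, NK, dendritic, erythroid and platelet cells. A few genes of these lists, and 1 of the genes most like a called gene, are not reported here. Promoter windows came from RefSeq (GRCm38.p6) and exon overlaps from GENCODE vM21. Each result was also computed with a pseudocount of 0.1, with no filter on low values, with a mean of at least 5 FPKM, with FPKM rescaled to TPM, with quantile normalization, with the replicate number as a block, with limma-voom on the recovered reads, in a fit of only the libraries compared (not for the interaction, which needs all groups), and without each library in turn. The code of the fit was run on simulated counts with a fixed spread that was not matched to these libraries. That run does not measure error rates in these data. Files were read with data.table version 1.17.8 and pandas 2.3.3, permutation tests were run with scipy 1.17.1, and plots were made in Python 3.11.15 by matplotlib 3.10.9.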

Additional observations from a re-analysis of the deposited data

Results flagged for a closer look

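The effect of TVA differed between siCreb1 and siNTC cells by the interaction test for 3 of 89 genes of the pathway lists (3.37%), against 2.24% of all tested genes. On the log2 scale the difference, taken as the siCreb1 effect less the siNTC effect, was −0.46 for Birc5 (adjusted p = 0.00978 from limma), −0.47 for Gtse1 (adjusted p = 0.00793 from limma) and 0.21 for Myb (adjusted p = 0.046 from limma). The Myb call was lost without 11 of the 12 libraries in turn, with adjusted p up to 0.111, in a range from 0.00846 to 0.168 over all alternatives. Among the cell markers, the difference was 0.47 for the platelet gene Ppbp (adjusted p = 0.0116 from limma). The same test called 0 of the 10 BCL2 family genes by limma. Of the 10 genes 2 had an unadjusted p under 0.05, against 1657 of all 11550 tested genes. Limma-voom called 1 of the 10, Bcl2, against 446 of all 11550.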

How the results depend on the processing

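The calls of Bcl2 and Bbc3 for siCreb1 against siNTC without TVA kept their direction and their side of the threshold under all 20 alternatives. Of 990 values of the 10 genes under the alternatives, 956 kept their side of the threshold, 18 lost a call, 16 gained one and 0 reversed a called direction, while 39 that were not called turned sign. Of 8731 values of the 89 tested pathway list genes, 8474 kept their side, 218 lost a call, 39 gained one and 0 reversed. The number of the 10 genes called for TVA in siNTC cells was 2 with limma-voom, 0 in a fit of only the libraries compared, and 0 to 3 leaving out 1 library. For TVA in siCreb1 cells it was 0 throughout by limma and limma-voom, with 3 at an unadjusted p under 0.05, against 1106 of all 11550 tested genes. For siCreb1 without TVA it was 2 with TPM and 3 to 4 leaving out 1 library. For siCreb1 with TVA it was 2 with a mean FPKM of at least 5, 1 with quantile normalization, 1 with limma-voom, and 0 to 2 leaving out 1 library. For the interaction it was 1 with limma-voom and 0 to 0 leaving out 1 library. Over all genes, TVA in siNTC cells gave 563 calls with no filter on low values, 556 with TPM, 368 in a fit of only the libraries compared and 558 to 767 leaving out 1 library. TVA in siCreb1 cells gave 37 with TPM, 34 with the replicate block, 157 with limma-voom, 39 in a fit of only the libraries compared and 30 to 67 leaving out 1 library. For siCreb1 without TVA there were 992 with no filter, 817 in a fit of only the libraries compared and 1020 to 1532 leaving out 1 library. For siCreb1 with TVA there were 683 with no filter, 740 with TPM and 599 to 1245 leaving out 1 library. The interaction gave 152 with TPM, 446 with limma-voom and 168 to 237 leaving out 1 library. With no filter more genes were tested (29700), and a fit of the libraries compared, or without 1 library, used fewer samples. Leaving out 1 library did not always lower the count, as with the 1245 calls for siCreb1 with TVA, against 1172 with all libraries. Why the counts differ was not tested for any of the alternatives. The Creb1 level left was 13.7% with TPM and 12.7% to 13.8% leaving out 1 library. Libraries of the same number in different groups were not alike once group means were removed (mean correlation −0.01, 18 pairs), and with the replicate block the counts over all genes were 687, 34, 1385, 973 and 195 in the 5 comparisons. The labels do not say that replicates are separate mice or cultures, so the p-values measure the spread between these libraries. With 3 libraries in each of the groups compared, permutation p-values cannot go under 0.1. The variance between replicates was 3.54 to 5.29 times that of counting alone. In the median pair of replicates it was 2.56 times for genes of 10 to 100 reads per library, 3.11 for 100 to 1000, 3.90 for 1000 to 10000 and 38.7 for more, so over these classes the part of counting is larger where reads are few. For the 10 genes the mean over the 12 pairs ran from 1.67 (Bad) to 4.37 (Bcl2) and did not follow their reads throughout, with 2.29 for Pmaip1 (271 to 367 reads per library), 3.01 for Bid, 2.13 for Bak1 and 2.99 for Mcl1.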
